A study of Mus musculus with 12 samples.

Results

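The 70 genes described here are the collagens, laminins, thrombospondins and tissue inhibitors of metalloproteinases (TIMPs) on the array, together with 14 genes of the matrix or of matrix-producing cells: Fn1, Sparc, Dcn, Lum, Bgn, Postn, Fbn1, Pdgfra, Pdgfrb, Acta1, Acta2, Tagln, Des and Vim. They were taken by symbol out of 17305 genes with a named probe, and each gene was read from its brightest probe. Of the 70 genes, 49 were well above background on all 12 arrays and 5 on none (Col24a1, Col28a1, Col4a3, Col9a1 and Lama1). The genes Lama3, Lamc1, Col6a3, Col6a5, Col12a1, Col20a1 and Col22a1 had no named probe and were not analysed here.

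Pancreatic islets sit on a basement membrane of type IV collagen and laminins that is largely laid down by the endothelium of the islet, and are wrapped in a thin capsule of fibrillar collagens. Pancreatic stellate cells are the fibroblast-like cells of the gland: when activated they take on smooth muscle actin and secrete type I and type III collagen, fibronectin and periostin, while TIMPs hold back the proteases that degrade this matrix. Fibrillar collagens carry tensile load, basement membrane collagens and laminins anchor epithelium and vessels, and the small leucine-rich proteoglycans decorin, lumican and biglycan space the collagen fibrils.

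RNA from isolated pancreatic islets of mice of 4 genotypes was hybridised to 1-colour Agilent whole mouse genome arrays. Each genotype had 3 arrays, and each array held islets pooled from 3 to 4 mice. The genotypes were wild type (WT), PPARγ2KO (deficient in the PPARγ2 isoform of the nuclear receptor PPARγ), ob/ob (leptin-deficient, labelled OB KO) and POKO (both deficiencies, labelled OB PPARg2 double KO). All mice shared the mixed C57BL/6 x Sv129 background and a chow diet, and were described as female. The labels give an age of 4 weeks, while the accompanying description gives 5 weeks. Islets were picked by hand after collagenase digestion and kept overnight in culture, so that cells lost or changed in those steps limit what the arrays hold of the matrix-producing cells. Whether pools of one genotype shared mice is not given in the sources used here, and the p-values measure the spread between these arrays.

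As a check of the labels, Pparg read 8.87, 8.98 and 8.85 in WT and 8.54, 9.77 and 9.61 in ob/ob, against 7.44, 7.27 and 6.60 in PPARγ2KO and 6.41, 7.11 and 7.14 in POKO (normalized log2 level, replicates 1 to 3, as for every set of 3 values below). The PPARγ2-deficient arrays lay below all others. Islet endocrine genes such as Ins2 were present on all arrays (8 of 9 listed genes well above background on all 12), and so were genes of neighbouring tissue (10 of 10 acinar, 8 of 8 duct and 10 of 10 endothelial genes). Summed signals ran from 2160000 to 2580000 for the 10 acinar genes and from 873000 to 1290000 for the 9 islet endocrine genes. Sums over different probes do not measure cell shares. The part of exocrine tissue in the matrix values was not tested. Median processed signals, before normalization, ran from 20.9 to 30.4 over the WT and PPARγ2KO arrays. They ran from 30.7 to 40.6 over the ob/ob and POKO arrays, without overlap. Each of the 3 slides carried 1 array of every genotype at a fixed position, so that position on the slide and genotype cannot be told apart. Islets were measured in bulk, so that fewer cells of a type and less RNA per cell cannot be told apart.

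Lamb3 and Col7a1, both genes of the epithelial basement membrane, were lower in ob/ob than in WT islets, Col11a2 and Thbs3 were higher, and the other members did not pass the test. A gene was called at an adjusted p of at most 0.05 (limma, Benjamini-Hochberg over all 41174 probes) and an absolute log2 difference of at least 1. In ob/ob vs. WT, 4 of 70 members were called (5.71%), beside 6.68% of the 17305 named genes: Lamb3 and Col7a1 fell, Col11a2 and Thbs3 rose. At an unadjusted p below 0.05 there were 18 members (25.7%, 9 higher and 9 lower), beside 37% of named genes. The median difference of the members was -0.02 on the log2 scale and that of all named genes -0.06.

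Lamb3 (chr1:193294353-193343878, RefSeq, GRCm38.p6) encodes the β3 chain of laminin-332, the laminin that anchors epithelial cells to their basement membrane. Its level was 10.60, 10.78 and 10.05 in WT, 10.37, 9.74 and 10.20 in PPARγ2KO, 9.30, 8.22 and 7.93 in ob/ob, and 9.25, 9.70 and 9.62 in POKO. All ob/ob arrays lay below all WT and PPARγ2KO arrays, and the POKO arrays lay below all WT arrays but overlapped with ob/ob. The fall in ob/ob vs. WT was 3.99-fold (-2.0 ± 0.35 SE, log2 difference with its SE, adjusted p = 0.0204, limma), with -1.30, -2.56 and -2.13 within the 3 slides. Without WT replicate 1, WT replicate 2, ob/ob replicate 2 or ob/ob replicate 3 the adjusted p was 0.0641, 0.0815, 0.0660 and 0.0616. With only the groups compared it was 0.0895. Lama5, the α5 chain of the common epithelial and vascular laminins, differed by -0.77 (adjusted p = 0.112).

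Col7a1 (chr9:108953586-108984875) encodes type VII collagen, whose anchoring fibrils tie an epithelial basement membrane to the matrix below it. It read 13.04, 12.92 and 13 in WT, 12.50, 12.33 and 12.20 in PPARγ2KO, 11.95, 11.90 and 11.17 in ob/ob, and 12.29, 12.55 and 12.50 in POKO. Every array of the other genotypes lay below every WT array, and ob/ob lay lowest, without overlap with POKO or PPARγ2KO. Col7a1 fell in ob/ob vs. WT by 1.31 on the log2 scale (-1.31 ± 0.19 SE, 2.49-fold lower, adjusted p = 0.0154), with -1.10, -1.02 and -1.82 within slides. Without WT replicate 2 the adjusted p was 0.0527, and with only the groups compared it was 0.0715. Its differences from WT were -0.64 in PPARγ2KO (adjusted p = 0.457) and -0.54 in POKO (adjusted p = 0.209), which did not pass. The interaction sets the POKO vs. ob/ob difference against the PPARγ2KO vs. WT difference (the first less the second), and for Col7a1 it was 1.42 ± 0.27 SE with an adjusted p of 0.213.

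The sequence before the start of Col7a1 is shown because this member was called in most of the settings tried (18 of 20 alternatives). The 250 bases run from chr9:108953336-108953585 on the + strand (RefSeq, GRCm38.p6). Capitals mark a CCAAT box on the reverse strand at -249 to -245 from the start and a GC box at -61 to -56. Both strands were searched for the TATA box (letters TATAA, held by 22.8% of 32851 promoters in these 250 bases), the CCAAT box (33.8%), the GC box (letters GGGCGG, 32.7%) and the CArG box, the binding motif of serum response factor (1.5%).
Col7a1: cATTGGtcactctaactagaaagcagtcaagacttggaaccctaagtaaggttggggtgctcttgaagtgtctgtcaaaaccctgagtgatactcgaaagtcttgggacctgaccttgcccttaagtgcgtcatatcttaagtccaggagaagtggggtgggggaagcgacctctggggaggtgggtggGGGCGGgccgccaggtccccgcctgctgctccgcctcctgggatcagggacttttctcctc

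Col11a2 (chr17:34038919-34066684), a chain of the minor fibrillar collagen XI of cartilage, read 4.37, 4.47 and 4.83 in WT, 4.10, 4.47 and 4.90 in PPARγ2KO, 5.59, 6.5 and 6.33 in ob/ob, and 5.55, 5.21 and 5.60 in POKO. Both leptin-deficient genotypes lay above both lean ones without overlap. The signal was dim, well above background on 1 of 3 WT arrays, 2 of 3 PPARγ2KO arrays and all arrays of ob/ob and POKO. The rise in ob/ob vs. WT was 1.58 ± 0.27 SE (adjusted p = 0.0202), with 1.22, 2.03 and 1.5 within slides. Against WT and PPARγ2KO, which were partly not well above background, only the direction of the Col11a2 difference is read. Its size is not fixed. With normexp background correction it was 0.23, below the fold limit. That correction added an offset of 50 to every signal, which shrinks differences of dim genes, and with them medians over members, here and below. A smaller normexp value of a dim gene is therefore no independent test of its difference. Without WT replicate 1, WT replicate 2, ob/ob replicate 2 or ob/ob replicate 3 the adjusted p was 0.0641, 0.0788, 0.0632 and 0.0648. The second probe of Col11a2, well above background on 1 array, differed by 0.90 (adjusted p = 0.0861).

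Thbs3 (chr3:89215180-89226841), a pentameric thrombospondin of the matrix, read 7.76, 8.24 and 8.80 in WT, 8.87, 8.70 and 9.02 in PPARγ2KO, 8.80, 9.55 and 9.63 in ob/ob, and 8.70, 8.95 and 8.78 in POKO. The lowest ob/ob array was almost level with the highest WT array, and the PPARγ2KO and POKO arrays lay between the means of both groups. The rise of 1.06 ± 0.28 SE (2.09-fold, adjusted p = 0.0431) was within slides 1.04, 1.31 and 0.84. It was the least stable of the calls, kept in 8 of 20 alternatives. Without any single array other than WT replicate 3 or ob/ob replicate 1 its adjusted p was 0.0506 to 0.130. With only the groups compared it was 0.16.

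**Figure D1:**
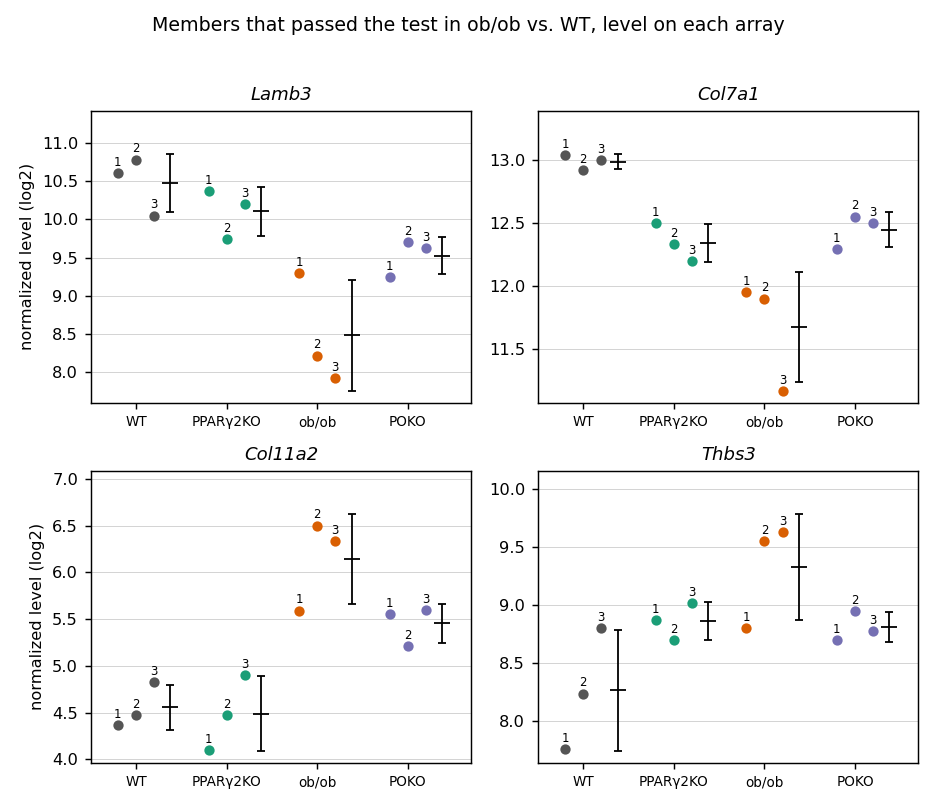
Normalized log2 level of Lamb3, Col7a1, Col11a2 and Thbs3 on each of the 12 arrays by genotype (points, numbered by replicate) with the mean and SD of 3 arrays beside them. All ob/ob points lie below all WT points for Lamb3 and Col7a1 and above them for Col11a2. For Thbs3 the lowest ob/ob point is level with the highest WT point (8.80 each).

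Over the average of both comparisons, leptin-deficient (ob/ob and POKO) vs. lean (WT and PPARγ2KO) with 6 arrays on each side, 2 of 70 members were called (2.86%), beside 3.4% of named genes. Col11a2 rose by 1.27 (± 0.19 SE, adjusted p = 0.0152) and Lamb3 fell by 1.29 (-1.29 ± 0.25 SE, adjusted p = 0.0246). With normexp, whose offset shrinks differences of dim genes, the difference of Col11a2 was 0.17. With the average of its probes it was 0.90, and both values were below the fold limit. Some lean arrays were not well above background for Col11a2, so only the direction of its difference is read. Leaving out any of 7 of the 12 arrays took the adjusted p of Lamb3 to between 0.0516 and 0.0682 there. Col7a1 passed the adjusted p (0.0326) with a difference of -0.60, below the fold limit. At an unadjusted p below 0.05 there were 12 members (17.1%), beside 33.7% of named genes.

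Some epithelial and vascular genes that are not members were also called in ob/ob vs. WT. Of 8 duct genes 2 were called lower in ob/ob vs. WT, the keratin Krt19 (-1.57, adjusted p = 0.0173) and the chloride channel Cftr (-1.33, adjusted p = 0.0436), and 3 of the 8 had higher means (Spp1, Krt7 and Tspan8), 2 of them at an unadjusted p below 0.05. The summed signal of the 8 was 82000 to 94600 in WT and 49600 to 74500 in ob/ob, a sum in which Krt19 and Spp1 weigh most. Itgb4, the integrin chain that binds laminin-332 in hemidesmosomes, was called lower too (-1.74, adjusted p = 0.0258), as 1 of 16 matrix receptors. The part of these epithelial genes in the falls of Lamb3 and Col7a1 was not tested. Of 10 endothelial genes all were higher in ob/ob and 3 were called (Cdh5, Plvap and Tie1), with a median difference of 1.12 and summed signals of 5890 to 16100 in WT and 18700 to 21200 in ob/ob. Of 8 T cell genes 6 were called higher in ob/ob, and of 7 B cell genes 4. The other T cell genes, Cd3e and Cd4, had lower means in ob/ob, and Cd3e read 8.25, 8.33 and 8.08 in WT and 6.09, 6.65 and 7.46 in ob/ob. The summed signal of the T cell genes was 449 to 471 in WT and 1100 to 2890 in ob/ob. The part of vascular and immune genes in the rises of Col11a2 and Thbs3 was not tested.

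The type IV collagen chains α1 and α2, which form the network of the vascular and islet basement membrane, did not pass. Col4a1 read 9.91, 9.57 and 10.82 in WT and 10.98, 10.26 and 10.94 in ob/ob, a difference of 0.62 (adjusted p = 0.205). Col4a2 read 10.34, 9.91 and 11.04 in WT and 11.41, 10.70 and 11.21 in ob/ob, a difference of 0.68 (adjusted p = 0.160). In both genes WT replicate 3 overlapped with ob/ob. The genes lie head to head on chromosome 8 with starts 21 bases apart (RefSeq, GRCm38.p6). The laminin chains Lama4 and Lamb1, which endothelium makes, differed by 0.05 and 0.35 (adjusted p = 0.932 and 0.441). Col4a4, a chain of the network known from kidney, differed by -0.54 (adjusted p = 0.185), and by -0.46 in PPARγ2KO vs. WT (adjusted p = 0.610).

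Genes of the interstitial matrix, made by fibroblasts and stellate cells, differed widely between arrays of one genotype. In ob/ob, replicate 1 was above replicates 2 and 3 for 6 of the 8 fibrillar collagens above background (not for Col2a1 and Col27a1) and for all 7 glycoproteins and proteoglycans, by 0.51 for Sparc up to 2.61 for Col1a1. Col1a1, the α1 chain of type I collagen, read 12.59, 9.98 and 9.73 in ob/ob, beside 10.89, 11.15 and 11.39 in WT, 10.97, 11.47 and 12.06 in PPARγ2KO, and 11.25, 12.29 and 11.34 in POKO. Col3a1, the chain of type III collagen, read 12.20, 10.03 and 9.87 in ob/ob, beside 10.39, 10.8 and 11 in WT, 10.59, 12.15 and 11.45 in PPARγ2KO, and 11.09, 12.57 and 11.04 in POKO. For both genes ob/ob held the lowest pair of the 12 arrays and, with replicate 1, one of the highest.

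Timp1, the inducible inhibitor of matrix metalloproteinases, read 13.65, 11.37 and 11.08 in ob/ob, beside 12.86, 13.60 and 13.26 in WT, 12.75, 13.08 and 13.61 in PPARγ2KO, and 12.61, 13.73 and 12.66 in POKO. Fn1, fibronectin, read 7.70, 5.89 and 5.46 in ob/ob against 6.75, 6.81 and 6.75 in WT. Fbn1, fibrillin of the microfibrils, read 6.88, 4.92 and 4.50 in ob/ob against 6.01, 5.59 and 6.17 in WT. In all of these, ob/ob replicates 2 and 3 lay below every WT array and replicate 1 lay above every WT array.

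Among members well above background on all arrays, the gap from ob/ob replicate 1 down to the next ob/ob array was widest for Col1a1 (2.61, a 6.09-fold gap), Col5a1 (2.36), Timp1 (2.28), Col3a1 (2.17), Col5a2 (2.11) and Col1a2 (2.03). It was at least 1 for 17 of these 49 members (34.7%), beside 244 of 11765 named genes (2.07%). Those 17 include type V and VI collagen chains, Lum, Dcn, Pdgfra, Pdgfrb and Lamb3. Arrays of the other genotypes also ranked alike across members: POKO replicate 2 held the highest POKO level for 42 of the 49 (85.7%, beside 30.3% of named genes), WT replicate 3 the highest WT level for 36 (73.5%, beside 39%), and PPARγ2KO replicate 3 the highest PPARγ2KO level for 27 (55.1%, beside 32.2%). Of these arrays, those of WT and PPARγ2KO share slide 3, and those of ob/ob and POKO lie on slides 1 and 2.

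**Figure D2:**
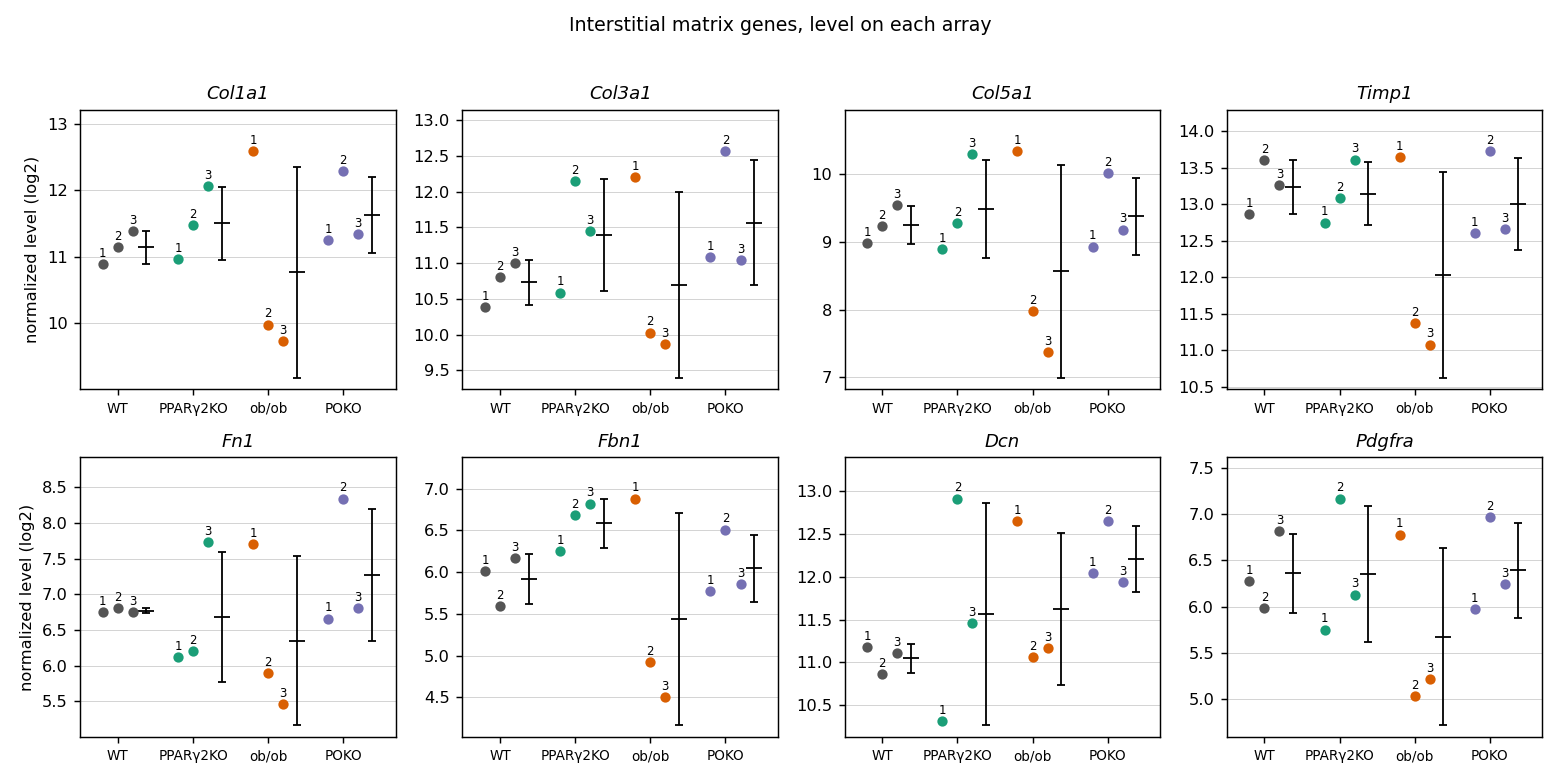
Normalized log2 level of 8 interstitial matrix genes on each array by genotype (points, numbered by replicate), with the mean and SD of 3 arrays. In ob/ob replicate 1 lies above replicates 2 and 3 for all 8 genes, by 2.61 for Col1a1 and 1.47 for Dcn.

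The spread of the 8 fibrillar collagens above background was accordingly wide in ob/ob. Their median SD over 3 arrays was 0.24 in WT, 0.52 in PPARγ2KO, 1.23 in ob/ob and 0.57 in POKO, beside 0.20, 0.22, 0.22 and 0.12 for all named genes above background. For the 7 matrix glycoproteins and proteoglycans it was 0.30, 0.44, 0.99 and 0.45. With this spread, the differences in ob/ob vs. WT were -0.38 ± 0.68 SE for Col1a1, -0.03 ± 0.68 for Col3a1, -1.21 ± 0.63 for Timp1 and -0.42 ± 0.67 for Fn1 (adjusted p = 0.735, 0.983, 0.224 and 0.693). The second probe of Timp1 also gave -1.21 (adjusted p = 0.244).

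Without ob/ob replicate 1, 7 members were called in ob/ob vs. WT, beside 8.58% of named genes. Lamb3 (-2.40, adjusted p = 0.00667), Col7a1 (-1.45, adjusted p = 0.0092), Col11a2 (1.86, adjusted p = 0.00872) and Thbs3 (1.33, adjusted p = 0.0195) were among them. The other 3 were lower: Timp1 (-2.02, adjusted p = 0.0194), Fbn1 (-1.22, adjusted p = 0.0323) and Lama5 (-1.14, adjusted p = 0.0158). Col1a1 was then at -1.29 with an adjusted p of 0.0613. This array was singled out after its values had been seen. The methods mention a smaller number of samples in a group that they do not name, and no source used here says which array, if any, was set aside.

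In ob/ob, POKO and WT the array that was highest for the members was also highest for fibroblast genes that are not members. The 12 stellate and fibroblast genes outside the members, each centred on its mean over the 12 arrays, averaged 0.40 in ob/ob replicate 1 and -0.24 and -0.35 in replicates 2 and 3, and 0.45 in POKO replicate 2 against 0.11 and -0.07 in the other POKO arrays. In WT they averaged -0.19, -0.28 and 0.05, highest in replicate 3. In PPARγ2KO they averaged -0.38, 0.41 and 0.08, highest in replicate 2, whereas most members were highest in replicate 3. The 18 matrix proteases averaged 0.51, -0.65 and -0.67 in ob/ob and 0.14, 0.98 and 0.19 in POKO, with Fap counted in both lists. In WT the proteases averaged -0.11, -0.27 and -0.19, highest in replicate 1. The 6 macrophage genes averaged 0.80, -0.34 and -0.47 in ob/ob and 0.79, 1.25 and 0.36 in POKO, with the same highest arrays. In WT they averaged -0.65, -0.78 and -0.10, highest in replicate 3, and in PPARγ2KO -0.70, 0.51 and -0.68, highest in replicate 2. Their summed signal was 4090 to 4930 in WT, 4680 to 6290 in PPARγ2KO, 1700 to 7030 in ob/ob and 4490 to 6860 in POKO, and 3 of the 6 were well above background on all arrays. The 10 endothelial genes did not set ob/ob replicate 1 apart (0.58, 0.31 and 0.54). Of the 12 stellate and fibroblast genes, Lrat and Gli1 were well above background on 0 arrays and Gfap and Hgf on 1 each. Ngfr, Nes, Cygb, Fap, Thy1, Tcf21, Pi16 and Dpt were above it on all 12. The summed signal of these 12 genes was 9520 to 10300 in WT, 9580 to 11900 in PPARγ2KO, 5830 to 7700 in ob/ob and 7400 to 9910 in POKO. Most of that sum was Nes, nestin, which was called lower in ob/ob vs. WT (-1.0, adjusted p = 0.0165), while the surface protein Thy1 was called higher (1.56, adjusted p = 0.0435) and 7 of the 12 genes were higher with a median of 0.07. The part of stellate, fibroblast and macrophage content in the spread of the matrix genes was not tested.

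**Figure D3:**
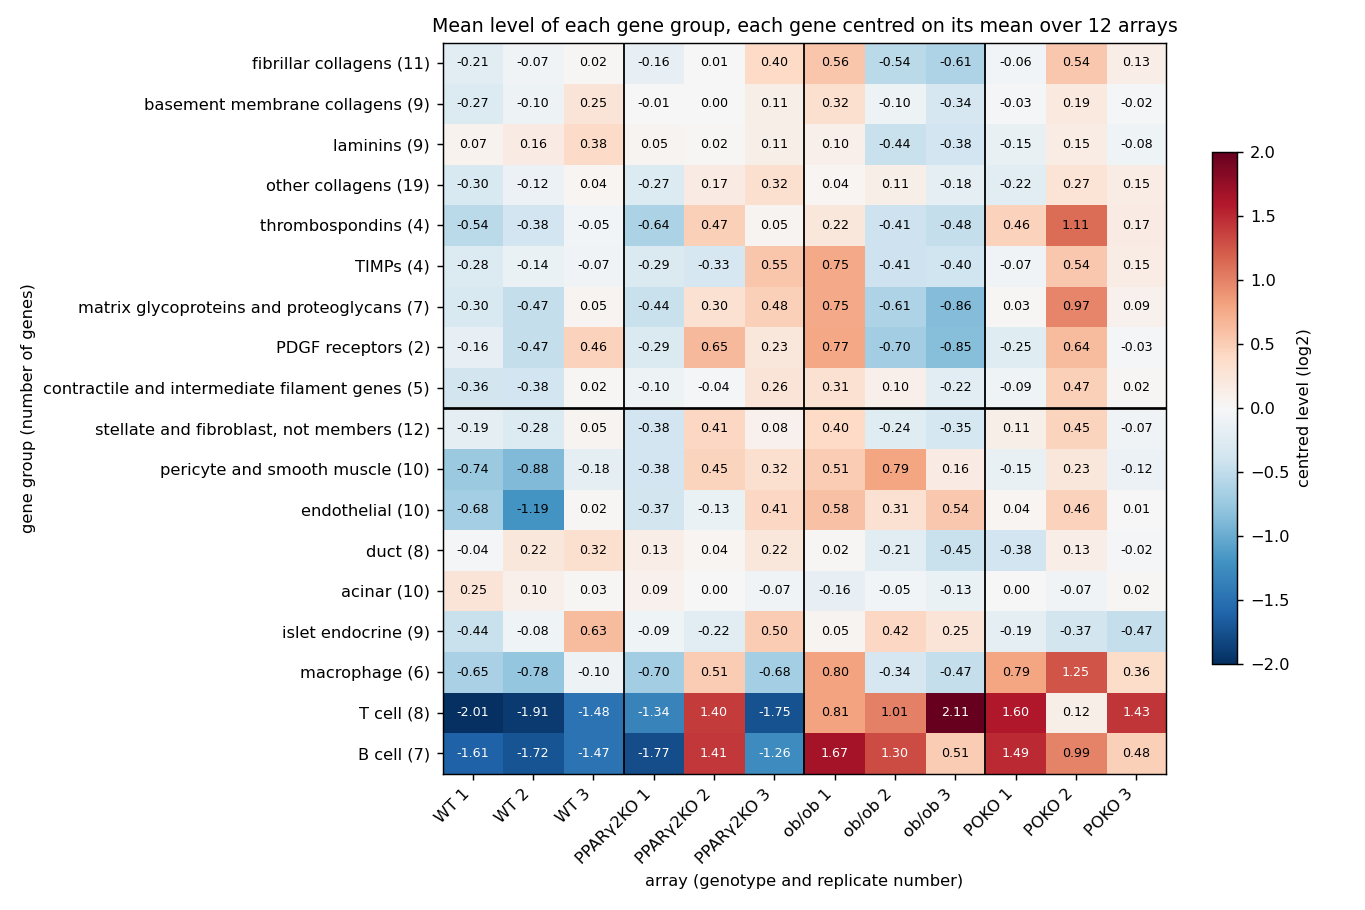
Mean log2 level of each gene group on each array after every gene was centred on its mean over 12 arrays, with member groups above the thick line and marker lists of cell types below it. The fibrillar collagens read 0.56 in ob/ob replicate 1 and -0.54 and -0.61 in replicates 2 and 3, and the T and B cell lists separate PPARγ2KO replicate 2 (1.40 and 1.41) from the other lean arrays.

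Immune genes also set PPARγ2KO replicate 2 apart. The T and B cell lists were at 1.40 and 1.41 in PPARγ2KO replicate 2, against -1.34 and -1.77 in replicate 1 and -1.75 and -1.26 in replicate 3. In that array Dcn, decorin, was highest of all 12 arrays (12.91, against 10.32 and 11.46 in the other PPARγ2KO arrays). Thbs2, a thrombospondin of fibroblasts with a dim signal, read 6.68 there against 3.79 and 4.89, and 6.47 in ob/ob replicate 1 and 6.98 in POKO replicate 2. The part of immune cell content in these values was not tested.

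Promoters of a pair of fibrillar collagen genes are shown because both genes were highest on ob/ob replicate 1 and POKO replicate 2 within their genotypes. The Col1a2 window is chr6:4505368-4505617 and the Col3a1 window chr1:45311288-45311537, both on the + strand and each the 250 bases before the start (RefSeq, GRCm38.p6). Capitals in Col1a2 mark 2 GC boxes and a CCAAT box at -109 to -105, and in Col3a1 overlapping matches to the TATA box on both strands at -118 to -113. Of the 70 members 53 had a promoter entry, and of these 14 held a TATA box, 19 a CCAAT box, 31 a GC box and 3 a CArG box. Over all promoters the shares were 22.8%, 33.8%, 32.7% and 1.5% in that order. A member was counted if any of its listed starts held the motif, while those shares count each promoter, so the units differ.
Col1a2: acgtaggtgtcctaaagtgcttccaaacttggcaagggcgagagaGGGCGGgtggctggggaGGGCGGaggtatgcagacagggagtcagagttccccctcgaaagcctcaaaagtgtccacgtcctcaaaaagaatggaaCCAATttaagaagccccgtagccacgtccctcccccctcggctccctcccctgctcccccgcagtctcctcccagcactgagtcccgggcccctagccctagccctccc
Col3a1: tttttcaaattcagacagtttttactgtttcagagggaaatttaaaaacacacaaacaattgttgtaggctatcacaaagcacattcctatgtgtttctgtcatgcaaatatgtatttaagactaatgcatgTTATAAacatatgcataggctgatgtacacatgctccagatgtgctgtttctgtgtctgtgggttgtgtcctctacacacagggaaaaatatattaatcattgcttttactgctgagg

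In POKO vs. ob/ob the data ask what loss of PPARγ2 adds to leptin deficiency. Collagens, matrix glycoproteins and contractile genes showed no called member: 0 of 70 passed in limma, beside 0% of named genes, with 8 members at an unadjusted p below 0.05 (11.4%, 6 higher and 2 lower), beside 11.8% of named genes. With weights for single arrays 5 members were called (7.14%, beside 3.17% of named genes with the same weights: Acta1, Thbs4 and Lamb3 higher, Des and Col19a1 lower). The weight was 3.75 for ob/ob replicate 2 and 0.495 and 0.618 for ob/ob replicates 1 and 3. The weighted ob/ob mean thus rests mostly on replicate 2, which was the highest ob/ob array for Des (6.87) and Col19a1 (3.60). Col19a1 was well above background on 1 of the 12 arrays and on no POKO array. Of the 70 members 47 were higher in POKO, with a median difference of 0.20, beside 52.5% of named genes and a median of 0.01, and with normexp background correction 49 were higher with a median of 0.05. All 6 macrophage genes were higher in POKO (median 0.69) and all 9 islet endocrine genes lower (median -0.67, 3 at an unadjusted p below 0.05). All 10 endothelial genes (median -0.36) and 8 of 10 pericyte and smooth muscle genes (median -0.33) were lower, and 9 of 12 stellate and fibroblast genes were higher (median 0.11, 1 unadjusted). None of these lists had a gene called by limma (0 in each), and their part in the difference was not tested. Without ob/ob replicate 1 the median was 0.38 and 52 were higher, and without POKO replicate 2 it was 0.08 and 39.

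Fibrillar collagens had a median difference of 0.61 in POKO vs. ob/ob (8 of 11 higher), and the glycoproteins and proteoglycans 0.61 (6 of 7 higher). Without ob/ob replicate 1 these medians were 1.34 and 1.19 with 0 calls, and without POKO replicate 2 they were 0.36 and 0.38. Lum, lumican, read 8.28, 9.15 and 8.21 in POKO and 8.69, 7.21 and 6.68 in ob/ob, a difference of 1.02 ± 0.55 SE (adjusted p = 0.593). Col1a1 differed by 0.86 ± 0.68 and Timp1 by 0.97 ± 0.63 (adjusted p = 0.718 and 0.663). All 3 genes overlapped between POKO and ob/ob through ob/ob replicate 1.

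Acta1 (chr8:123891758-123894775), the skeletal muscle α-actin that smooth muscle and activated mesenchymal cells can also make, had the smallest p of the members in POKO vs. ob/ob. It read 8.77, 9.47 and 9.06 in POKO, against 7.67, 7.59 and 7.77 in ob/ob, 7.91, 8.04 and 8.13 in WT, and 8.65, 7.97 and 8.32 in PPARγ2KO. All POKO arrays lay above all arrays of the other genotypes. The difference was 1.42 ± 0.20 SE from ob/ob (2.68-fold, adjusted p = 0.230), 1.07 ± 0.20 from WT (2.11-fold, adjusted p = 0.0744) and 0.79 ± 0.20 from PPARγ2KO (adjusted p = 0.260), and none was called. Within slides it was 1.11, 1.88 and 1.29 from ob/ob. The difference from WT was called with a filter on dim probes (adjusted p = 0.0340), with weights for single arrays (0.0174) and without PPARγ2KO replicate 1 or 2 (0.0451 and 0.0273).

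Of 10 other skeletal muscle genes 2 were well above background on all arrays and the muscle creatine kinase Ckm on none, and their summed signal was 146 to 158 in POKO, 142 to 201 in ob/ob and 145 to 190 in WT. The Acta1 window is chr8:123894776-123895025 on the - strand, the 250 bases before the start (RefSeq, GRCm38.p6), shown because it is one of 3 among 53 member promoters with a CArG box. Capitals mark that box at -73 to -64, 2 GC boxes, and a TATA box match at -7 to -3.
Acta1: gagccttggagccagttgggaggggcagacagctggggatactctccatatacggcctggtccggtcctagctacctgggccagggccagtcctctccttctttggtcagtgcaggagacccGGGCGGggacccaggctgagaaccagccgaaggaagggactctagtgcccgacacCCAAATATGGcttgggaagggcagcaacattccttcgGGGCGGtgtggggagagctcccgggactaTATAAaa

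Among the thrombospondins, Thbs4 had the widest difference of the members in POKO vs. ob/ob. It read 5.80, 6.61 and 5.44 in POKO, 4.15, 3.71 and 3.62 in ob/ob, 4.64, 4.64 and 5.16 in WT, and 3.32, 4.87 and 4.96 in PPARγ2KO. POKO lay above all other arrays, but the signal was dim and the difference of 2.12 ± 0.45 SE was not called (4.35-fold, adjusted p = 0.531). With normexp background correction, whose offset shrinks differences of dim genes, it was 0.35. A second probe gave 1.98 (adjusted p = 0.276). Thbs1, which activates latent TGF-β, read 10.29, 10.23 and 10.07 in POKO and 9.78, 9.67 and 9.40 in ob/ob, without overlap and with a difference of 0.58 ± 0.14 SE (adjusted p = 0.531).

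Tagln and Des, genes of smooth muscle and pericytes, were ordered otherwise than Acta1. Tagln, transgelin, read 9.33, 9.31 and 9.99 in WT, 10.29, 10.39 and 10.32 in PPARγ2KO, 10.47, 10.59 and 9.93 in ob/ob, and 9.61, 9.96 and 9.52 in POKO. All PPARγ2KO arrays lay above all WT and POKO arrays, while ob/ob overlapped with both through replicate 3. The differences were 0.79 ± 0.22 SE in ob/ob vs. WT (adjusted p = 0.0535) and 0.79 ± 0.22 in PPARγ2KO vs. WT (adjusted p = 0.457), and the interaction was -1.42 ± 0.32 (adjusted p = 0.228, and 0.0388 without WT replicate 3). A second probe of Tagln was called in ob/ob vs. WT (1.59, adjusted p = 0.0371).

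Des, desmin of stellate and muscle cells, read 5.28, 4.90 and 5.83 in WT and 6.66, 6.87 and 5.85 in ob/ob, a difference of 1.12 ± 0.42 SE without overlap (adjusted p = 0.108). In POKO it read 5.16, 6.15 and 5.35. Of 10 pericyte and smooth muscle genes outside the members 4 were called higher in ob/ob vs. WT (Rgs5, Notch3, Kcnj8 and Abcc9), with a median of 1.25 and summed signals of 1360 to 2400 in WT and 3810 to 4150 in ob/ob. The part of pericyte content in the values of Tagln and Des was not tested. Acta2, smooth muscle α-actin, went the other way, with 12.89, 12.98 and 12.75 in WT and 12.65, 12.06 and 12.33 in ob/ob (-0.53 ± 0.22 SE, adjusted p = 0.136), and Vim, vimentin, differed by 0.51 (adjusted p = 0.317).

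**Figure D4:**
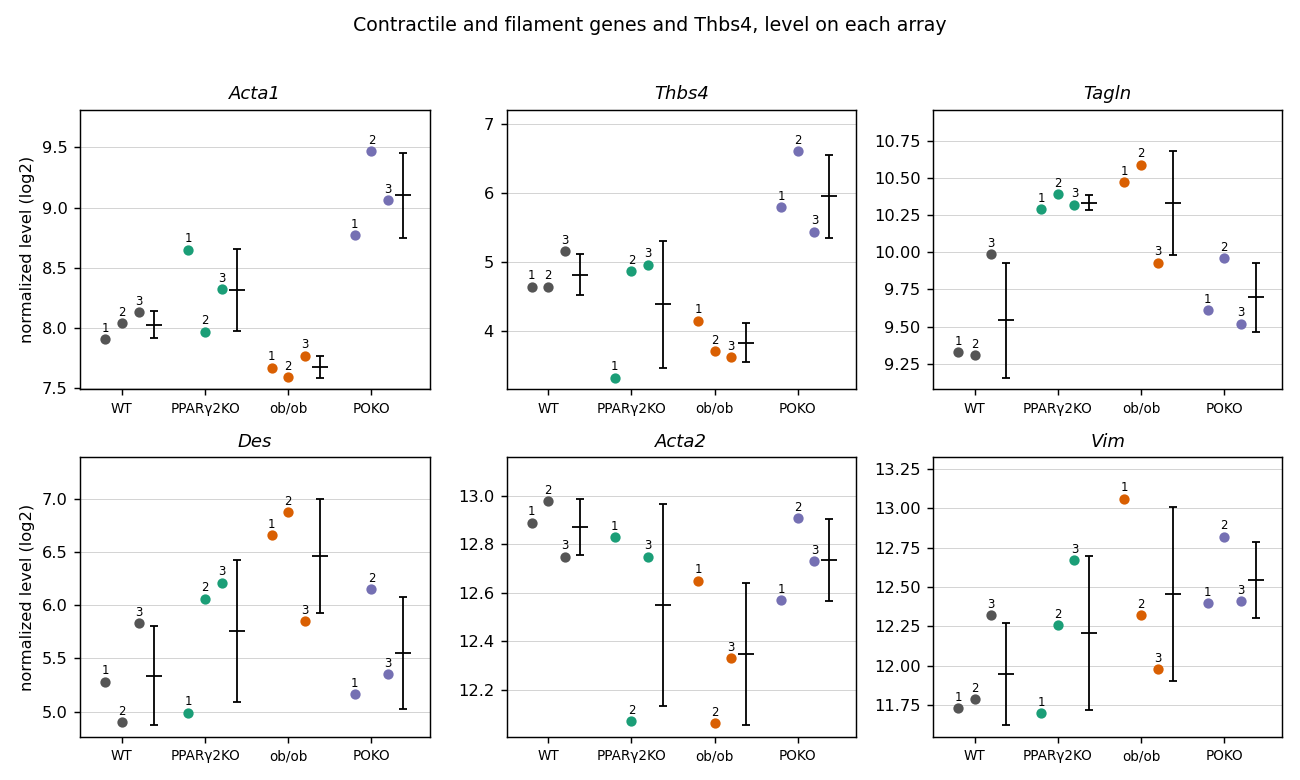
Normalized log2 level of Acta1, Thbs4, Tagln, Des, Acta2 and Vim on each array by genotype (points, numbered by replicate), with the mean and SD of 3 arrays. POKO lies above all other arrays for Acta1 (8.77 to 9.47) and Thbs4 (5.44 to 6.61), and PPARγ2KO lies above WT and POKO for Tagln.

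No member was called by limma in the interaction, in POKO or PPARγ2KO against WT, or in POKO or ob/ob against PPARγ2KO. For POKO vs. WT it was 0 of 70, beside 0.191% of named genes, with 11 members at an unadjusted p below 0.05 (15.7%, 8 higher and 3 lower), beside 17.2%, and 3 called with array weights (Acta1, Col14a1 and Lamb3, 4.29%, beside 4.77% of named genes with the same weights). Col14a1, a fibril-associated collagen, read 4.19, 4.45 and 4.84 in WT and 6.01, 6.34 and 5.49 in POKO, without overlap (1.45 ± 0.44 SE, adjusted p = 0.155). The mean of its probes gave 0.55, and normexp background correction, whose offset shrinks differences of dim genes, gave 0.25.

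For PPARγ2KO vs. WT it was 0 of 70, beside 0% of named genes, with 6 members unadjusted (8.57%, 3 higher and 3 lower), beside 8.83%, and 0 with array weights. Sparc, a collagen-binding protein of basement membranes, read 11.82, 11.88 and 12.74 in WT and 12.63, 13.20 and 13.11 in PPARγ2KO (adjusted p = 0.502). Timp2 differed by 0.35 (adjusted p = 0.501). For ob/ob vs. PPARγ2KO it was 0 of 70, beside 0.00578%, with 6 members unadjusted (8.57%, 1 higher and 5 lower), beside 25.1%, and 3 with array weights (Col11a2 higher, Lamb3 and Lama5 lower, 4.29%, beside 4.95% of named genes with the same weights). Col11a2 differed by 1.65, Lamb3 by -1.62 and Col7a1 by -0.67 there (adjusted p = 0.0796, 0.0900 and 0.123), all without overlap.

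Without ob/ob replicate 1, 6 members were called in ob/ob vs. PPARγ2KO, beside 3.47% of named genes: Col11a2 was higher, and Col1a1 (-1.64, adjusted p = 0.0483), Timp1 (-1.92, adjusted p = 0.0333), Fbn1 (-1.88, adjusted p = 0.0170), Lama5 and Lamb3 were lower. For POKO vs. PPARγ2KO it was 0 of 70, beside 0%, with 6 unadjusted (8.57%, 4 higher and 2 lower), beside 12.9%, and 0 with array weights. Lama5 read 9.11, 9.48 and 9.33 in POKO and 10.19, 9.58 and 9.84 in PPARγ2KO, without overlap (-0.56, adjusted p = 0.518). The interaction gave 0 of 70, beside 0%, with 11 unadjusted (15.7%, 9 positive and 2 negative), beside 16.1%, and 0 with array weights. That of Acta1 was 1.14 (adjusted p = 0.255) and that of Thbs3 -1.12 (adjusted p = 0.291).

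Averaged over lean and leptin-deficient mice, most members had small differences in one direction with loss of PPARγ2. In PPARγ2-null (PPARγ2KO and POKO) vs. intact (WT and ob/ob), with 6 arrays on each side, 56 of 70 members were higher, with a median of 0.16, beside 48.9% of named genes and a median of 0.00. No member was called by limma (0 of 70, beside 0% of named genes, 0 with array weights), and 6 had an unadjusted p below 0.05 (8.57%, 5 higher and 1 lower), beside 4.09%. All 7 glycoproteins and proteoglycans were higher (median 0.42, from 0.13 to 0.82), as were 9 of 11 fibrillar collagens (median 0.33) and all 4 thrombospondins (median 0.56). Acta1 had the smallest p (0.85 ± 0.14 SE, adjusted p = 0.610). When each array was left out in turn, 50 to 58 members were higher and the median was 0.11 to 0.27, and with normexp background correction 58 were higher with a median of 0.07. Marker lists were counted as well, with 0 genes called by limma in those given here. All 6 macrophage genes (median 0.51) and all 8 T cell genes (median 0.40) had higher means. So did 9 of 10 endothelial genes (median 0.14) and 9 of 12 stellate and fibroblast genes (median 0.30). Of 9 islet endocrine genes 7 had lower means (median -0.16). At an unadjusted p below 0.05 there were 0, 0, 0, 2 and 1 of them, and their part in the difference of the members was not tested. Members ranked alike across arrays (above), so that they are not independent observations, and the low ob/ob replicates 2 and 3 and the high POKO replicate 2 all enter this difference.

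**Figure D5:**
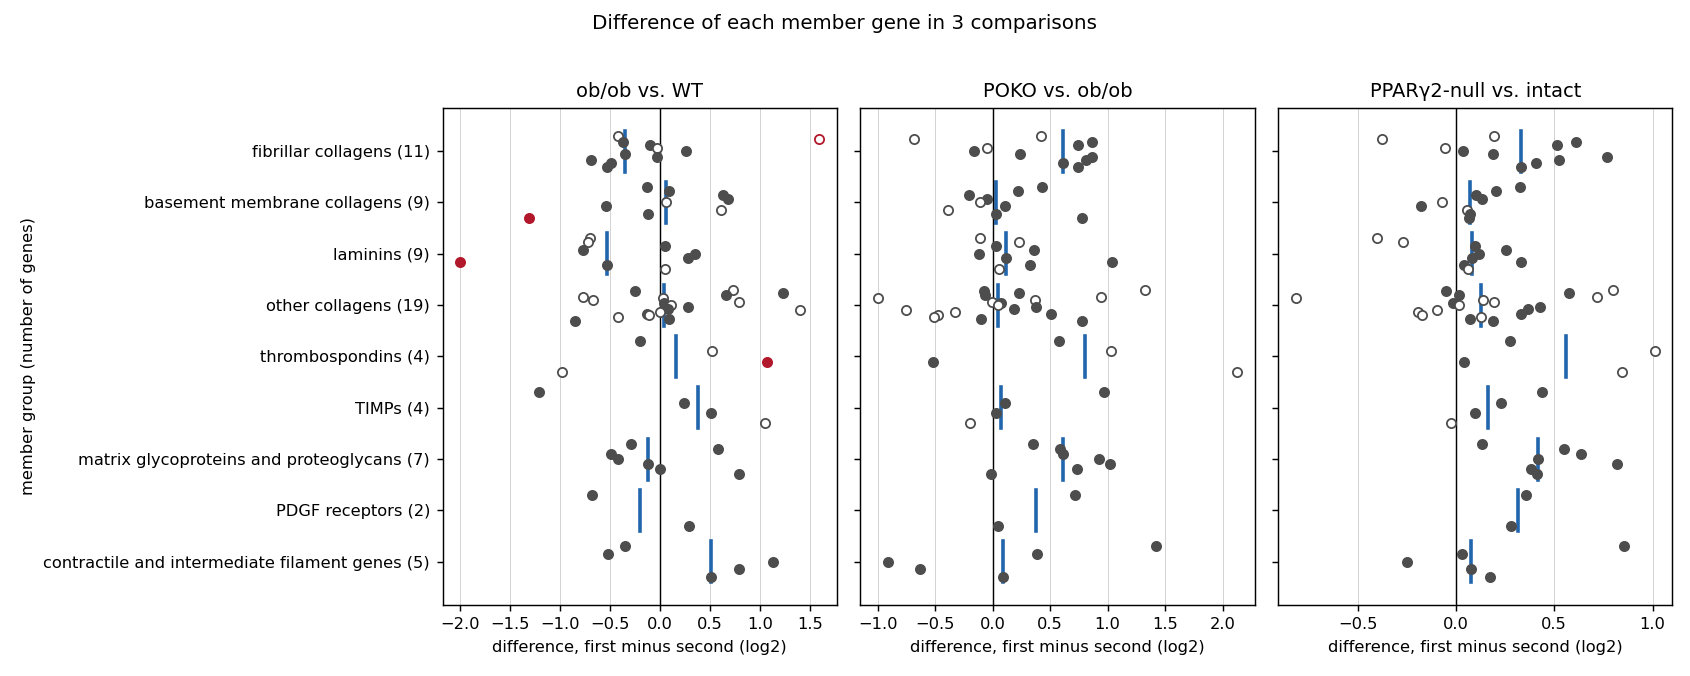
Log2 difference of each of the 70 members by group in ob/ob vs. WT, POKO vs. ob/ob and PPARγ2-null vs. intact (points), with the median of each group (blue bar), members called in red and members not above background on all arrays as open points. Called members appear in the panel of ob/ob vs. WT and in no other panel, and in PPARγ2-null vs. intact 56 of 70 points lie above 0.

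Genes that build, cut and sense the matrix were counted in the same way. In ob/ob vs. WT, where 6.68% of named genes were called, 1 of 23 collagen processing genes was called, P4ha1, a subunit of the prolyl hydroxylase that stabilizes the collagen helix (1.29, adjusted p = 0.0190). Of 10 other basement membrane genes Smoc2, a matricellular calcium-binding protein, fell (-1.25, adjusted p = 0.0276). None of 18 matrix proteases and none of 12 ligands that activate stellate cells was called (limma, with 2 and 4 at an unadjusted p below 0.05). In POKO vs. ob/ob 17 of the 18 proteases were higher with a median of 0.55 and 0 called (3 unadjusted). For the gelatinase Mmp2 the levels were 7.81, 9.40 and 7.79 in POKO and 8.11, 6.39 and 6.49 in ob/ob, with the same high arrays as the collagens.

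The remaining members named by role did not pass the test in ob/ob vs. WT. Dcn differed by 0.57 ± 0.62 SE (adjusted p = 0.554), Lum by -0.12 ± 0.55 (0.906) and Bgn, biglycan, by -0.29 ± 0.36 (0.607). Postn, periostin, differed by 0.00 ± 0.52 (adjusted p = 1.00), and its ob/ob levels were 9.33, 8.55 and 7.36. The PDGF receptors, which drive growth of stellate cells and pericytes, differed by -0.69 ± 0.53 for Pdgfra and 0.28 ± 0.43 for Pdgfrb (adjusted p = 0.401 and 0.682), and Timp3 by 0.51 ± 0.24 (0.193). Of 35 members with more than 1 named probe, in ob/ob vs. WT 12 had a probe of opposite sign, and 13 had one for POKO vs. ob/ob, among them probes not above background.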

How the data were processed

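Islet RNA labelled with Cy3 was hybridised to Agilent 4x44K arrays, and per the file headers the intensity values are the processed signal of Agilent Feature Extraction 10.1.1.1, background-subtracted by that software. The deposited flags mark spots as outlier, saturated or well above background. The series table holds the authors' log2 values after quantile normalization (correlation of 0.9997 with the values used here on the arrays).

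Of 45018 spots on an array, 1639 control spots and 919 outlier spots over all arrays were left out. Signals were quantile-normalized and log2-transformed, and spots of a probe were averaged to 41174 probes, of which 25097 had a symbol through RefSeq accessions. A model with 4 genotypes was fitted to all 12 arrays with limma 3.58.1 in R 4.3.3 (lmFit and eBayes), with p-values adjusted by the Benjamini-Hochberg method over all probes. The methods of the study name the array as a blocking variable, which could not be fitted because each array holds 1 sample. A fold or a difference is of normalized log2 means. The steps were tested on simulated data. The number of arrays limits the precision.

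Members named with values were those called, those with the 2 smallest p-values in each direction of a pairwise comparison among members detected above background on all 3 arrays of whichever genotype was brighter (on all 12 for the interaction), and a list by role, and further ones were chosen after their values were seen. A member could pass this filter through its brighter genotype alone. The filter only chose which members are named, and the calls were made over all probes. The members and lists were chosen with earlier results of these data known. The alternatives were the 75th percentile scaling, normexp correction, a filter on dim probes, no fold limit, the groups compared alone, a replicate block, array weights, the authors' values, the mean of all probes and each array left out. Same-numbered arrays shared a slide, but their deviations correlated at -0.134 to 0.184, over 0.1 in 4 of 18 pairs, so the numbers were not taken to pair the samples.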

Additional observations from a re-analysis of the deposited data

How the results depend on the processing

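No alternative turned the direction of a called member. In ob/ob vs. WT, 4 members were called, against 2 with normexp background correction and 0 with only the groups compared. Weights for single arrays gave 10 (14.3%, beside 14.5% of named genes). When each array was left out, 0 to 7 were called. There were 0 without WT replicate 2, and 1 without WT replicate 1, ob/ob replicate 2 or ob/ob replicate 3. Without ob/ob replicate 1 there were 7, beside 8.58% of named genes. In leptin-deficient vs. lean, 2 were called, against 0 with normexp, 1 when a gene's probes were averaged, 3 with array weights (4.29%, beside 5.9% of named genes) and 1 to 3 when each array was left out. In POKO vs. WT, 0 were called, against 1 with a filter on dim probes and 0 to 1 when each array was left out. Array weights gave 3 (4.29%, beside 4.77% of named genes). In POKO vs. ob/ob, 0 were called, against 5 with array weights (7.14%, beside 3.17% of named genes), among them the dim Col19a1. In ob/ob vs. PPARγ2KO, 0 were called, against 2 with the dim probe filter and 3 with array weights (4.29%, beside 4.95% of named genes). Leaving out each array gave 0 to 6 calls. There was 1 without PPARγ2KO replicate 3, and there were 6 without ob/ob replicate 1, beside 3.47% of named genes. The interaction had 0, and 0 to 1 when each array was left out (Tagln without WT replicate 3). The dim probe filter tests fewer probes and the subsets use fewer arrays. The cause of the other differences was not tested. Shares of named genes are not given here for the other settings. Counts without that share are not read as particular to the members.

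With the replicate block, which is also the slide, 5 members were called in ob/ob vs. WT (Col6a4 in addition) and 2 in leptin-deficient vs. lean, and it changed no other call. The share of named genes called with the block is not given here, so the added call is not read as particular to the members. Scaling to the 75th percentile moved the ob/ob vs. WT median over all probes from -0.08 to -0.19. The normexp alternative used the median spot signal, since a mean spot signal was not among the columns used here. Its offset of 50 shrinks differences of dim genes, so calls lost with it do not test those differences independently. Array weights ran from 0.423 for WT replicate 3 to 3.75 for ob/ob replicate 2, so that weighted ob/ob means rest mostly on that array. Dim signal limits Col11a2 and Thbs4, and 21 members were not well above background on all arrays.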
